A study of Mus musculus with 72 samples.

Results

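The 37 genes described here encode complement and coagulation proteins that the liver secretes into plasma. They were chosen by symbol from 50307 genes in the count table: 17 belong to complement and 20 to clotting, its inhibitors and fibrinolysis. All 37 are listed by Ensembl identifier and had enough counts to be tested, among 14954 such genes; the filter keeps a gene that is high in any group, and C1s2 met it through the DBA libraries. Complement component C5 carries the mouse symbol Hc.

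The livers were those of female and male mice of the inbred strains C57BL/6J, called B6 here, and DBA/2J, called DBA. All received a Western diet, which is rich in fat and used to make mice obese; its content of isoleucine, an essential branched-chain amino acid, was that of the control diet, low or high. The 72 libraries form 12 groups of 6, namely B6 females, B6 males, DBA females and DBA males on each of the 3 diets, and all mice were fasted for 16 h after 12 weeks on diet. Age at the start of the diet is 6 weeks in the design text and 18 weeks in the treatment text of the labels. The age field of the labels gives 18 weeks for every library, and the strain field spells the B6 name C56BL/6J. Whether each library stands for its own animal is not stated in the labels, so p-values measure the spread between libraries, which may in part be technical, and no group received another base diet.

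Complement is a set of plasma proteases and pore-forming proteins that mark and lyse microbes. The lectin and classical pathways start it, the C3 and C5 convertases amplify it, and the terminal components assemble into the membrane attack complex. Coagulation is a parallel protease cascade that ends in the cleavage of fibrinogen to fibrin, which anticoagulants limit and plasmin dissolves. Hepatocytes make most of these proteins, and many of them rise in the acute phase response.

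Library totals ranged from 13 to 51.1 in units of 1e6 counts, with a median of 24.1. Levels are given as CPM, counts per 1e6 counts of the scaled library total. Xist, which silences an X chromosome in females, had at least 216.5 CPM in each of 36 female libraries and no more than 0.985 CPM in each of 36 male libraries. The Y-linked gene Ddx3y was at 0 in the female libraries except B6 female control library 4, which had 0.568 CPM. That library was also the lowest of its group for most of the 37 members, among them C4b, Mbl1, Mbl2, C8g, C1s1, F7, F10, Proc and Plg. It was the highest for C2, C9, Pros1, Serpinf2 and Kng1, and calls lost without it are given beside the results. The hepatocyte markers summed to between 72208.2 and 108171 CPM in B6 female controls; none of these 8 genes was at 0 in any group.

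Per kilobase of exon, C3 had the highest mean level over the 72 libraries, 1432.3 CPM per kilobase. C3 is the protein on which all complement pathways converge. The 3 fibrinogen chain genes came next, Fgg at 1384.9, Fgb at 1163.2 and Fga at 1113.8 CPM per kilobase. The kininogen gene Kng1 (696.6) and the plasminogen gene Plg (617.3) followed on the same scale. At the low end were the lectin pathway protease gene Masp1 with 15.9, the protein S gene Pros1 with 12.4 and C1s2 with 3.98 CPM per kilobase. Levels in CPM below are not divided by length and compare libraries for 1 gene at a time.

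The promoters of 6 members are shown because they form the 2 protein complexes that the results turn on: C8a, C8b and C9 encode components of the membrane attack complex, and Fga, Fgb and Fgg the 3 chains of fibrinogen. Each sequence runs from 250 bases before to 50 bases after the RefSeq start site (GRCm38.p6), 5′ to 3′ on the gene's strand, and is that of the reference, which is built from B6. The DBA alleles were not analysed here. Capitals mark matches on either strand to any of 4 motifs: an HNF1 half-site (GTTAAT), C/EBP (TTGCNNAA), STAT (TTCNNNGAA) and HNF4 (CAAAGTCCA).
C8a (chr4:104876349-104876648, minus strand): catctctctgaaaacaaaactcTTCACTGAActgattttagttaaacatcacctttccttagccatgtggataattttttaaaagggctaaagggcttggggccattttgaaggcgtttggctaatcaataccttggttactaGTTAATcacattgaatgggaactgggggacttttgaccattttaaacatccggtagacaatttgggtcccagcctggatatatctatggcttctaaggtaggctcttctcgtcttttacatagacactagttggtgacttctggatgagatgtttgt
C8b (chr4:104766067-104766366, plus strand): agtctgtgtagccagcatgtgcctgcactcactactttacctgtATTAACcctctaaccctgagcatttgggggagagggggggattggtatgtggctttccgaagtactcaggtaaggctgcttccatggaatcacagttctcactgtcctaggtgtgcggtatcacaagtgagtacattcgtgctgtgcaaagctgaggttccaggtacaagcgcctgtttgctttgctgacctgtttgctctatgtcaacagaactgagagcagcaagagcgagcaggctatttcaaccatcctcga
C9 (chr15:6445096-6445395, plus strand): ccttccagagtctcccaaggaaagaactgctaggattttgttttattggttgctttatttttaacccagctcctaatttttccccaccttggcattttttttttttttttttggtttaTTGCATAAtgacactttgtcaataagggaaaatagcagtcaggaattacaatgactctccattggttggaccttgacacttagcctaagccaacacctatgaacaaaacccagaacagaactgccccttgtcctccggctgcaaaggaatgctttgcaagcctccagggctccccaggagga
Fga (chr3:83025903-83026202, plus strand): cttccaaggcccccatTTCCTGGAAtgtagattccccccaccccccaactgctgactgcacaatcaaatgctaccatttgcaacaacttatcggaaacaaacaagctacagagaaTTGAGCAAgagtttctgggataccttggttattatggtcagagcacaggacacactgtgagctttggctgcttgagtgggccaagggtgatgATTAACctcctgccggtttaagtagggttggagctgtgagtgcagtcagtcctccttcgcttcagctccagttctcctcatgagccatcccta
Fgb (chr3:83049814-83050113, minus strand): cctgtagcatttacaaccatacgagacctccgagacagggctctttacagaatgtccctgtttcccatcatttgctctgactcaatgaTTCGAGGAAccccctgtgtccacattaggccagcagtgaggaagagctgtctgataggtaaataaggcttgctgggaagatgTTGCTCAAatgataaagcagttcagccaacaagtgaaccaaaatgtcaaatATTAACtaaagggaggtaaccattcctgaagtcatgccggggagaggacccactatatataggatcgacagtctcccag
Fgg (chr3:83007474-83007773, plus strand): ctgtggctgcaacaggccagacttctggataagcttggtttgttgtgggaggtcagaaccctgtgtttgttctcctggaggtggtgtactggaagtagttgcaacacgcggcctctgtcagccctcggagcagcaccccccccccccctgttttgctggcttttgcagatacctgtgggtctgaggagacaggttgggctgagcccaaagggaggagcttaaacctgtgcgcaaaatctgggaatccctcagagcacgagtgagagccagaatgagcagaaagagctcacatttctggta

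C8a had 2 matches, a STAT match starting 228 bases and an HNF1 half-site 107 bases before the start site. C8b had 1, an HNF1 half-site, and C9 had 1, a C/EBP match. Fga and Fgb each held 3, with STAT, C/EBP and HNF1 matches in the same order going towards the start site, and Fgg held 0. Members were counted with 1 promoter each, and promoters on chromosome 18, where Proc lies, were left out for them. Among the 29 members so counted, 9 (31%) held the HNF1 half-site, 11 (37.9%) C/EBP and 7 (24.1%) STAT. The shares among all 32851 promoters of 300 bases were 7.1%, 10.8% and 8.3%. That set kept chromosome 18 and was not cut to 1 promoter per gene, so the shares count unlike units. The HNF4 motif was in 0 of the 29 and in 0.475% of all promoters. A match describes letters in this window and is no evidence of binding.

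The first question was what low isoleucine did to these genes. Of the complement genes 10 of 17 were lower on low isoleucine than on control, and 2 of 3 fibrinogen genes were higher. As the mean of the 4 strain and sex classes, 14 members fell and 2 rose at an adjusted p below 0.05 by edgeR's quasi-likelihood test, over all genes tested. That is 43.2% of the members, beside 37.8% of all genes; the members' falls are 37.8% beside 20.0% of all genes, and their rises 5.41% beside 17.8%. Of the 17 complement genes 10 fell and 0 rose (median log2 fold change -0.20), and of the 20 coagulation and fibrinolysis genes 4 fell and 2 rose (median -0.03), where the median of all genes was 0. In bulk liver, fewer cells of a type and less RNA per cell cannot be told apart.

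**Figure D1:**
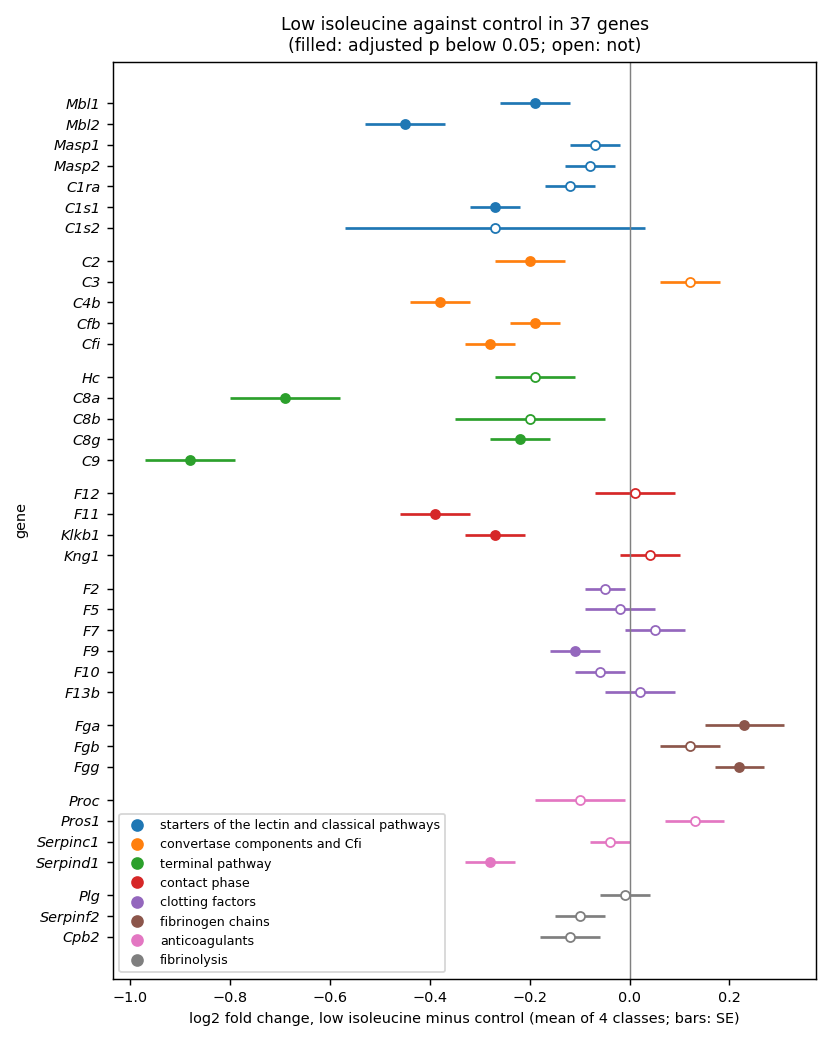
Log2 fold change of low isoleucine minus control, as the mean of 4 classes, for the 37 genes on the vertical axis in the order of their roles; bars are standard errors and filled points passed an adjusted p of 0.05. C9 (-0.88) and C8a (-0.69) lie farthest to the left, and all 3 fibrinogen genes lie to the right of 0.

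Among the starters of the lectin and classical pathways, 3 of 7 fell. Mbl2, a mannose-binding lectin that recognises microbial sugars, lay at 206.4, 416.5 and 479.4 CPM (lowest, median and highest library) in B6 female controls. On low isoleucine in that class it lay at 168.3, 213.4 and 266.2 CPM. The ranges overlapped only through control library 4, and the fall was -0.82 ± 0.15 (log2, SE; adjusted p = 9e-05). Over the 4 classes Mbl2 fell by 0.45 ± 0.08 (adjusted p = 2.8e-06), with 23 of 24 low libraries below the control mean of their class, taken here and below as the mean of log2 CPM. C1s1, the classical pathway protease C1s, fell by 0.27 ± 0.05 with 23 of 24 libraries below (adjusted p = 4.1e-06). Mbl1, the other mannose-binding lectin gene, fell by 0.19 ± 0.07 (adjusted p = 0.025), a mean over classes that went in different directions and did not pass with the title number as a block (0.074) or with no filter (0.053). C1s2 (-0.27 ± 0.30) had almost no counts in B6, and in DBA its changes were 0.01 ± 0.15 in females and -0.25 ± 0.15 in males. The protease genes Masp1 (-0.07), Masp2 (-0.08) and C1ra (-0.12) did not pass.

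The response of Mbl1 differed between the sexes. In DBA males it lay at 194, 246.3 and 266.8 CPM on control and at 279.6, 297.5 and 377.6 CPM on low isoleucine, with no overlap, a rise of 0.39 ± 0.14 (adjusted p = 0.04). In DBA females the medians went from 183.9 to 137.1 CPM, a change of -0.45 ± 0.14 (adjusted p = 0.024), and in B6 females from 156.5 to 98 CPM, a change of -0.52 ± 0.14 (adjusted p = 0.0053). In B6 males the change was -0.18 ± 0.14 and did not pass. The effect in males minus that in females was 0.59 ± 0.14 (adjusted p = 0.0051). Klkb1 was the other of 2 members that passed this test, which 6.68% of all genes did, at 0.35 ± 0.11 (adjusted p = 0.043). With the title number as a block the Mbl1 changes in DBA males (adjusted p = 0.12) and DBA females (0.071) and the Klkb1 difference (0.12) did not pass.

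Of the convertase components and the convertase inhibitor Cfi, 4 of 5 fell. C4b, which supplies a subunit of the classical and lectin pathway C3 convertase, lay at 992, 1133.5 and 1498.9 CPM in B6 male controls and at 718.3, 811.9 and 957 CPM on low isoleucine, with no overlap (-0.51 ± 0.13, adjusted p = 0.0095). The medians in the other classes went from 1282.1 to 1047 CPM in B6 females, from 1391.1 to 1103.9 CPM in DBA females and from 1512.9 to 1070.4 CPM in DBA males. Over the 4 classes C4b fell by 0.38 ± 0.06, with 23 of 24 libraries below their control mean (adjusted p = 2.4e-06). C4b shares most of its sequence with its neighbour C4a, so reads between them are uncertain. Cfi, the protease that cleaves C3b and C4b, fell by 0.28 ± 0.05 (adjusted p = 2e-06), and its ranges did not overlap in B6 females or in B6 males. Cfb (-0.19) and C2 (-0.20), which supply the proteases of the alternative and classical convertases, fell as well. The fall of C2 did not pass with quality weights (adjusted p = 0.072). C3 did not pass over the classes (0.12 ± 0.06, adjusted p = 0.12) and rose in DBA males (0.38 ± 0.13, adjusted p = 0.027). That rise did not pass without DBA male control library 1 (adjusted p = 0.088) or in a fit of the compared groups alone (0.082). Nor did it pass with quality weights (0.071) or with the title number as a block (0.087).

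The 2 largest falls among the members were in the terminal pathway. C9, the subunit that polymerises into the pore, lay at 287.9, 368 and 428.3 CPM in B6 male controls and at 92.8, 136.3 and 152.1 CPM on low isoleucine. In B6 females it went from 102.4, 111.1 and 139.6 CPM to 31.7, 55.4 and 91 CPM, and in neither B6 class did the diets overlap. In DBA males it went from 505.7, 630.2 and 786 CPM to 257, 383.3 and 519.1 CPM, with overlap, and in DBA females from a median of 211.5 to 176.4 CPM. Over the classes C9 fell by 0.88 ± 0.09, or 1.85-fold (adjusted p = 2.3e-11), with 22 of 24 libraries below their control mean. By class it was -1.46 ± 0.19 in B6 males, -1.03 ± 0.19 in B6 females, -0.70 ± 0.19 in DBA males and -0.34 ± 0.19 in DBA females, the last of which did not pass (adjusted p = 0.25).

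C8a encodes the alpha chain of C8, which inserts into the membrane before C9. It lay at 92.1, 111.8 and 133.3 CPM in B6 female controls and at 28.6, 49.1 and 77.9 CPM on low isoleucine. In B6 males the values went from 383.4, 475.4 and 643.2 CPM to 189.7, 227.1 and 267.7 CPM, and in both classes the diets did not overlap. In DBA males the medians were 922.9 and 881.4 CPM, a change of -0.01 ± 0.21, and in DBA females 384.6 and 258.2 CPM, a change of -0.50 ± 0.21 (adjusted p = 0.12). Over the classes C8a fell by 0.69 ± 0.11 (adjusted p = 4.1e-07). The gamma chain gene C8g fell by 0.22 ± 0.06 (adjusted p = 0.0035). C8b, the beta chain gene, did not pass (-0.20 ± 0.15, adjusted p = 0.28), nor did Hc (-0.19 ± 0.08, adjusted p = 0.066), which fell in B6 males from a median of 573.5 to 413.2 CPM (-0.57 ± 0.17, adjusted p = 0.034). That fall of Hc did not pass with no filter (adjusted p = 0.067) or with the title number as a block (0.17).

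The falls in C8a and C9 were smaller in DBA than in B6. The effect in DBA minus that in B6 was 0.86 ± 0.21 for C8a (adjusted p = 0.022) and 0.73 ± 0.19 for C9 (adjusted p = 0.029). Kng1 was the third of 3 members to pass this test (0.44 ± 0.11, adjusted p = 0.027), where 1.39% of all genes passed. Kng1 encodes high molecular weight kininogen, the cofactor of the contact phase. Its medians went from 2575.4 to 3173.9 CPM in DBA females and from 2380.5 to 2770.6 CPM in DBA males, but from 1912.9 to 1685.6 CPM in B6 females and from 2073.6 to 1943 CPM in B6 males. No class alone passed for Kng1, which also has a near-identical neighbour, Kng2. With the number in the library titles as a block, 0 members passed (adjusted p = 0.12 for C8a, 0.14 for C9 and 0.099 for Kng1). The C9 difference did not pass with no filter either (0.051).

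**Figure D2:**
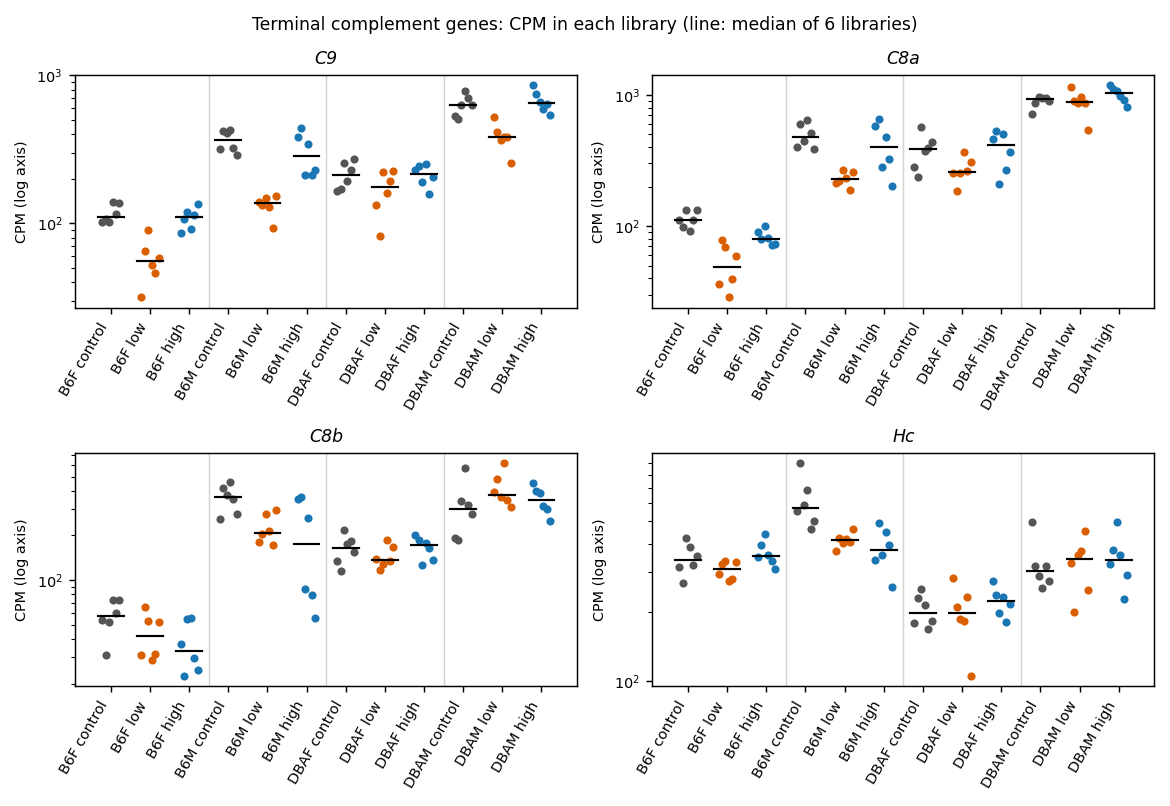
CPM on a log axis in each of the 72 libraries for C9, C8a, C8b and Hc; each point is a library, each line the median of 6, and colour shows the diet (grey control, orange low, blue high). Males sit above females for C9 and C8a in both strains, the low diet has the lowest median of these 2 genes in both B6 classes, and the B6 male high group of C8b splits into 3 libraries at 261.3 to 365.6 CPM and 3 at 55.3 to 87.2 CPM. The same 3 libraries of that group are the higher ones for C9 and C8a.

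In the contact phase, which starts clotting on charged surfaces, 2 of 4 genes fell and both lie side by side on chromosome 8, separated by 4657 bases. F11, the gene of clotting factor XI, lay at 58.9, 82 and 104.9 CPM in DBA female controls and at 48.8, 58.8 and 68.3 CPM on low isoleucine. The other medians went from 28.5 to 19.6 CPM in B6 females, from 29.6 to 25.6 CPM in B6 males and from 97.2 to 77.8 CPM in DBA males. All 4 class changes pointed down, and the mean was -0.39 ± 0.07 with 23 of 24 libraries below (adjusted p = 1.9e-05). Klkb1, which encodes plasma prekallikrein, fell by 0.27 ± 0.06 (adjusted p = 9.7e-05), and in B6 females by 0.57 ± 0.11, where the median went from 209.5 to 136.7 CPM with no overlap. F12, which encodes the protease that begins the contact phase, was at 0.01 ± 0.08.

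Of the 6 clotting factor genes only F9, factor IX, passed; it fell by 0.11 ± 0.05 (adjusted p = 0.047) and did not pass with the title number as a block (0.091) or with no filter (0.13). F7, the factor that tissue factor activates, did not pass in any class: its class medians went from 69.8 to 65.1, from 59.5 to 58.6, from 93.6 to 99.2 and from 80.4 to 84.7 CPM in B6 females, B6 males, DBA females and DBA males. The prothrombin gene F2 (-0.05), F5 (-0.02), F10 (-0.06) and F13b (0.02) lay within 2 standard errors of 0.

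Fibrinogen went the other way. Fgg, the gamma chain gene, lay at 2245.2, 2848.9 and 3146.3 CPM in DBA male controls and at 2763.7, 3548 and 3914.3 CPM on low isoleucine, with overlap (0.31 ± 0.10, adjusted p = 0.016). In that class it did not pass without DBA male control library 1 (adjusted p = 0.063) or in a fit of the compared groups alone (0.077). With the title number as a block it did not pass either (0.05). Over the classes Fgg rose by 0.22 ± 0.05, or 1.17-fold, with 23 of 24 libraries above their control mean (adjusted p = 1.6e-04). Fga, the alpha chain gene, rose by 0.23 ± 0.08 with 19 of 24 above (adjusted p = 0.012), but did not pass with the title number as a block (adjusted p = 0.057). Fgb, the beta chain gene, did not pass (0.12 ± 0.06, adjusted p = 0.11); its medians on control and low isoleucine were 3731.8 and 4341.8 CPM in B6 females, 4243.5 and 4060 CPM in the males of that strain, 5114.6 and 5993.1 CPM in DBA females and 4318.9 and 4475.3 CPM in their males. The 3 genes lie within 42140 bases on chromosome 3.

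Among the anticoagulants Serpind1, heparin cofactor II, fell by 0.28 ± 0.05 with 23 of 24 libraries below (adjusted p = 2.6e-05). The protein C gene Proc (-0.10), the antithrombin gene Serpinc1 (-0.04) and Pros1 (0.13) did not pass, although Pros1, the cofactor of protein C, rose in B6 females (0.38 ± 0.12, adjusted p = 0.024). That rise did not pass with no filter (adjusted p = 0.053) or in a fit of the compared groups alone (0.069). Of the fibrinolysis genes none of 3 passed over the classes: Plg was at -0.01, the antiplasmin gene Serpinf2 at -0.10 and Cpb2, whose product slows fibrinolysis, at -0.12.

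**Figure D3:**
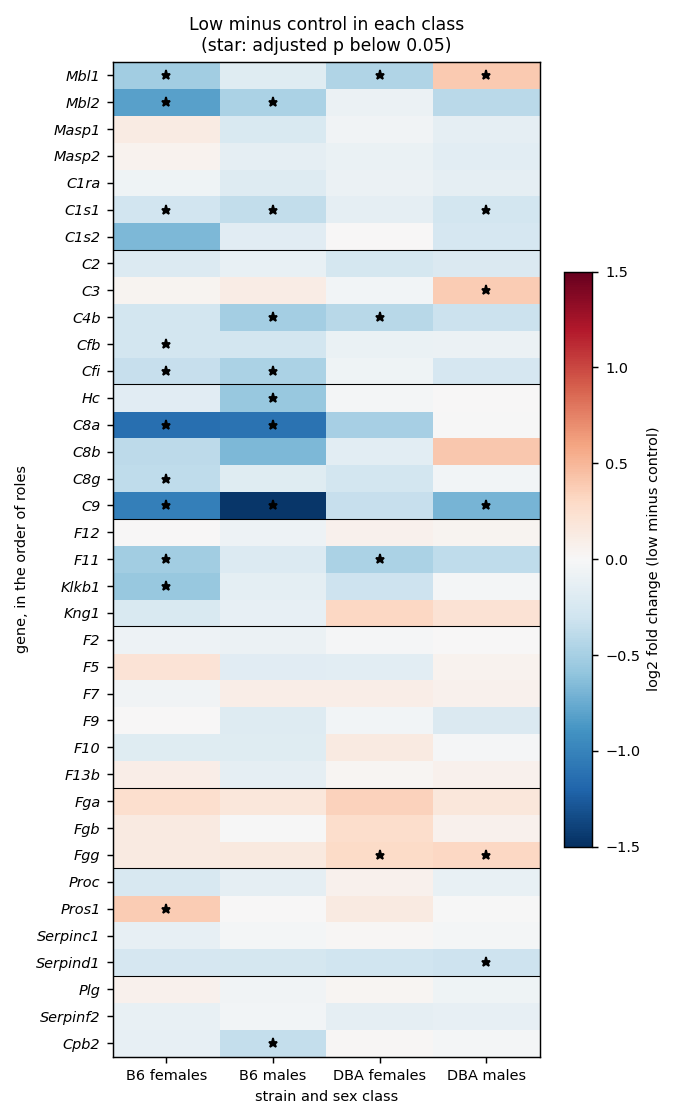
Log2 fold change of low isoleucine minus control (colour, red higher and blue lower) for the 37 genes in rows, grouped by role, in the 4 strain and sex classes in columns; stars mark an adjusted p below 0.05. B6 has 11 stars in females and 8 in males, and DBA has 4 in females and 6 in males.

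Within single classes, low isoleucine lowered 10 and raised 1 member in B6 females, where 20.8% of all genes passed. It lowered 8 in B6 males (5.0% of all genes), lowered 3 and raised 1 in DBA females (11.8%), and lowered 3 and raised 3 in DBA males (17.7%). All 8 in B6 males were lower: C9, C8a, Cfi, C1s1, C4b, Hc, Cpb2 and Mbl2. With the title number as a block the 4 counts were 7, 3, 0 and 1. No member passed in all 4 classes.

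The other genes of these pathways, 56 in all, were counted in the same way. Of all genes tested 20.0% fell and 17.8% rose. The complement list holds C1qa, C1qb, C1qc, Vsig4 and Itgam, which are also counted among the macrophage markers below. The clotting list holds F8 and F13a1, which are also endothelial and platelet markers, so the lists overlap. Of 31 other complement genes tested, 15 fell and 1 rose (median -0.26). They included C1rl (-0.38 ± 0.05), a protease related to C1r, Serping1 (-0.34 ± 0.06), the C1 inhibitor, Clu (-0.30 ± 0.05), clusterin, and C6 (-0.63 ± 0.13), which joins C5b in the terminal complex. Of 22 other clotting genes, 6 fell and 3 rose, among them Serpina10 (-0.48 ± 0.07), the inhibitor of factor Xa with protein Z, and Proz (-0.27 ± 0.07), protein Z itself. Thbd, thrombomodulin of the endothelium, rose (0.58 ± 0.15), as did Serpina5 (1.31 ± 0.37), the protein C inhibitor.

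Of 21 regulators of liver genes, 5 rose and 3 fell, where 17.8% of all genes rose and 20.0% fell (37.8% passed). Ghr, the growth hormone receptor, fell by 0.45 ± 0.06 (adjusted p = 1.5e-08), and Nfe2l2, which encodes NRF2, fell by 0.25 ± 0.06. Il1r1, the interleukin-1 receptor, rose by 0.58 ± 0.13 and Hnf4a, a master regulator of hepatocyte genes, by 0.22 ± 0.06.

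Markers of other liver cells moved too. Of 10 Kupffer cell markers 8 fell (median -0.46), and their summed level in B6 males went from 224.5 to 412.5 CPM on control to 94.5 to 228 CPM on low isoleucine. It went from 335.1 to 949 CPM to 267.3 to 412.2 CPM in B6 females and from 205.3 to 383.7 CPM to 209.4 to 325.9 CPM in DBA females. In DBA males it went from 139.3 to 294.9 CPM to 170.3 to 247.1 CPM. No Kupffer cell marker was at 0 in any group. Of 8 hepatocyte markers 5 rose and 0 fell, and 4 of 6 infiltrating macrophage markers fell. The sinusoidal endothelium had 3 of 6 higher, and the stellate cells 2 of 6 lower. Of the platelet markers 0 of 3 and of the neutrophil markers 0 of 2 passed. The part of these cells in the members' changes was not tested.

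High isoleucine was compared with control next, and here no member passed over the 4 classes, as for all genes (0.0% called); DESeq2 called 0 members as well. At an unadjusted p below 0.05, 2 members stood lower, C1s2 (-1.01 ± 0.34), which rests on B6 libraries with almost no counts, and C8b (-0.32 ± 0.15). The other members' mean effects were small, and the highest of all 37 was 0.09, for Mbl1. In B6 females 0 members passed (0.0% of all genes), in DBA females 0 (0.00669%) and in DBA males 0 (0.0134%). In B6 males, where 4.51% of all genes passed, 2 members fell.

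Those 2 were C3 and Hc. C3 lay at 6293.1, 6946.7 and 10203.8 CPM in B6 male controls and at 4822.7, 5198.4 and 5610 CPM on high isoleucine, with no overlap (-0.49 ± 0.13, adjusted p = 0.017). Hc went from 461.9, 573.5 and 897 CPM to 257.9, 374.6 and 491.8 CPM, with overlap (-0.69 ± 0.17, adjusted p = 0.012). With the title number as a block neither passed (adjusted p = 0.08 and 0.07), and in a fit of the compared groups alone 0 members passed. C3 did not pass with quality weights either (0.052). Its control value of 10203.8 CPM came from library 2, where the next highest was 7397.9 CPM. C8b in the B6 male high group split in 2: libraries 1, 2 and 4 had 353.4, 365.6 and 261.3 CPM and libraries 3, 5 and 6 had 87.2, 79.6 and 55.3 CPM. The same libraries split for C9, with 385, 437.6 and 341.5 CPM against 211.1, 214 and 230.4 CPM. C8a split likewise, with 575.6, 652.9 and 478.3 CPM against 281.2, 325.5 and 200.9 CPM. Hc and C8g overlapped between these libraries. The change of C8b did not pass (-0.83 ± 0.29, adjusted p = 0.08).

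High against low isoleucine, which share no library, separated 19 members: 14 were higher and 5 lower on high isoleucine (43.6% of all genes passed, 22.9% higher and 20.7% lower). C9 was higher by 0.81 ± 0.09 (adjusted p = 1.6e-10), C8a by 0.57 ± 0.11, C4b by 0.44 ± 0.06 and Mbl2 by 0.41 ± 0.08. All 3 fibrinogen genes were lower on high isoleucine: Fgg at -0.25 ± 0.05, Fga at -0.28 ± 0.08 and Fgb at -0.18 ± 0.06. C3 (-0.23 ± 0.06) and Pros1 (-0.20 ± 0.06) were the other 2. This comparison uses the same low libraries as that of low isoleucine with control.

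More members differed by strain than by diet. On the control diet 24 of 37 differed between DBA and B6, 20 higher and 4 lower in DBA, which is 64.9% beside 45.4% of all genes. The higher ones were 54.1% of members beside 22.9% of all genes, and the lower ones 10.8% beside 22.5%. C1s2 is among the higher ones, although it was tested only because of its DBA counts. In females 20 members differed (32.3% of all genes) and in males 20 (40.5%). Mbl1 in females did not pass without B6 female control library 4 (adjusted p = 0.18; the lowest over 8 alternatives was 0.024). Without DBA male control library 1, which lay far from its group for C3, Hc and F13b, 16 differed in males. Reads of both strains were counted on the B6-based reference, and the effect of strain variants on read mapping was not tested.

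C1s2 was close to all or nothing. This paralog of C1s lies 82265 bases from C1s1 on chromosome 6, at chr6:124624625-124636085 on the minus strand of GRCm38. In the 36 B6 libraries it had 15 counts in total and was at 0 in 25; its highest value was 0.1 CPM. In the 36 DBA libraries it lay between 15.4 and 37.6 CPM, on every diet and in both sexes. On the control diet the ratio of summed counts, scaled by library size, was 836 (exact 95% interval 424 to 1937.3, counting error only). In DBA it was higher in males than in females (0.58 ± 0.15, adjusted p = 0.0021), with medians of 24.4 and 17 CPM. C1rb, a C1r paralog and no member, was also near 0 in B6: its highest B6 group median was 0.0557 CPM and its DBA medians lay between 15.1 and 24.1 CPM.

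C1s1 went the other way, lower in DBA (-0.30 ± 0.07, adjusted p = 1.5e-04), with 12 of 12 DBA control libraries below the B6 mean of their sex. Its control medians in females and males were 405.4 and 472.8 CPM in B6 and 310.5 and 412.8 CPM in DBA. How reads divide between C1s1 and C1s2 is uncertain because the genes are similar.

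**Figure D4:**
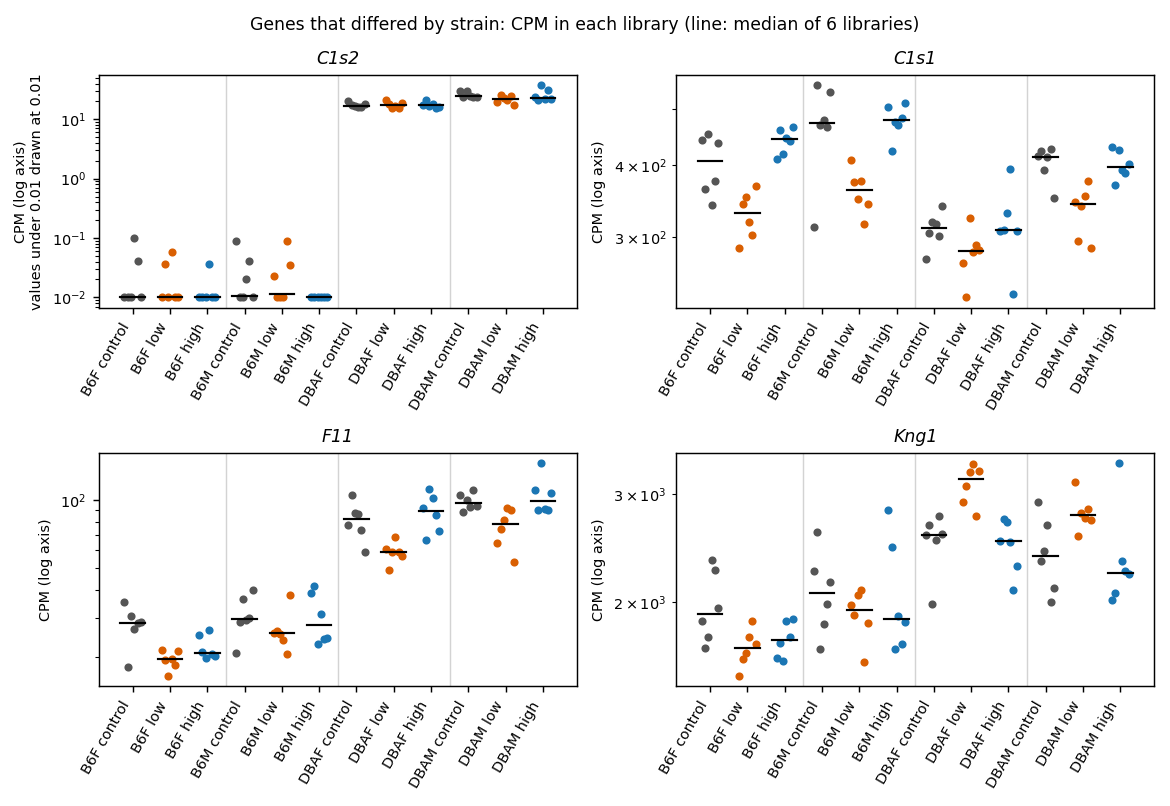
CPM on a log axis in each of the 72 libraries for C1s2, C1s1, F11 and Kng1; each point is a library, each line the median of 6, and colour shows the diet (grey control, orange low, blue high). C1s2 values under 0.01 CPM are drawn at 0.01; all 36 DBA libraries lie at 15.4 CPM or higher.

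F11 was 3.06-fold higher in DBA. Its control libraries lay at 18.2, 28.5 and 35.2 CPM in B6 females, at 20.9, 29.6 and 39.9 CPM in B6 males, at 58.9, 82 and 104.9 CPM in DBA females and at 88.6, 97.2 and 110.2 CPM in DBA males. No DBA library overlapped a B6 library of its sex, and the difference was 1.61 ± 0.11 (log2, adjusted p = 3.2e-21). Its neighbour Klkb1 differed less (0.32 ± 0.08, adjusted p = 5.2e-04). The other contact phase genes were Kng1, higher in DBA (0.28 ± 0.08), and F12, lower (-0.37 ± 0.11).

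Hc was lower in DBA, 1.78-fold (-0.83 ± 0.12, adjusted p = 2.5e-08). DBA/2J is known to carry an Hc allele that leaves its plasma without C5. Control libraries lay at 269.4, 338.5 and 422.5 CPM in B6 females and at 169.6, 199.4 and 252.2 CPM in DBA females, with no overlap, and at 461.9, 573.5 and 897 CPM in B6 males and 255.3, 303.5 and 498.8 CPM in DBA males, where 1 library overlapped. Hc RNA was therefore still counted in every DBA library, down to 105.8 CPM.

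Of the other 4 terminal genes, 3 were higher in DBA as the mean of both sexes. C8a differed by 1.30 ± 0.15 (adjusted p = 5.5e-11) and C9 by 0.83 ± 0.13 (adjusted p = 3.4e-07). C8b, which lies 11130 bases from C8a on chromosome 4, differed by 0.67 ± 0.21 (adjusted p = 0.0063) as the mean of both sexes. In females the C8b difference was 1.51 ± 0.30, with 31.3, 57 and 73.5 CPM in B6 and 115.9, 164.5 and 219 CPM in DBA. In males it was -0.18 ± 0.29, with 256.6, 364 and 457.3 CPM in B6 and 185.8, 302.2 and 568.1 CPM in DBA. The chain gene C8g did not pass (0.10 ± 0.09).

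Of the remaining complement genes, Masp1 (0.56 ± 0.08), C2 (0.51 ± 0.10), Mbl1 (0.36 ± 0.10), Mbl2 (0.28 ± 0.11) and C4b (0.25 ± 0.09) were higher in DBA. Without B6 female control library 4, C4b and Mbl2 no longer passed (adjusted p = 0.051 and 0.08; over 9 alternatives the lowest values were 2.2e-06 and 3.8e-08). Mbl2 did not pass without DBA male control library 1 either (adjusted p = 0.057), nor with quality weights (0.066). The clotting genes F7 (0.47 ± 0.08), F10 (0.29 ± 0.07) and F9 (0.18 ± 0.06) were higher, as were Fgg (0.22 ± 0.07) and Fgb (0.25 ± 0.08). F7 and F10 are neighbours on chromosome 8, 1498 bases apart. Fga did not pass (0.04 ± 0.11). Serpinf2 (0.46 ± 0.08), Plg (0.41 ± 0.07) and Serpind1 (0.26 ± 0.08) were higher and Pros1 was lower (-0.48 ± 0.09).

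Of the 31 other complement genes 11 were higher and 12 lower, and of 22 other clotting genes 6 and 7. Of all genes 22.9% were higher and 22.5% lower. Some genes of these lists are also among the cell markers, as given above. C4a was higher in DBA by 3.07 ± 0.24, with control medians of 288.2 CPM in DBA males, 33.2 in DBA females, 15.0 in B6 males and 7.21 CPM in B6 females. Cfhr2, a factor H-related gene, was lower (-1.85 ± 0.11), as was Cebpa among the regulators (-0.88 ± 0.11). Of the Kupffer cell markers 8 of 10 were lower in DBA (median -0.80), and of the infiltrating macrophage markers 5 of 6; their part in the members' differences was not tested.

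The 4 largest sex differences among the members were in terminal pathway genes. On the control diet 17 members passed as the mean of both strains, 13 higher and 4 lower in males: 45.9% beside 26.2% of all genes, with 35.1% beside 13.3% higher and 10.8% beside 12.9% lower. All 5 terminal genes were higher in males (median 1.60). Of the other 32 members 8 were higher and 4 lower. C9 was 3.03-fold higher (1.60 ± 0.14, adjusted p = 1.5e-15), C8a 3.18-fold (1.67 ± 0.15), C8b 3.46-fold (1.79 ± 0.21) and Hc 1.68-fold (0.75 ± 0.12), each in 12 of 12 male libraries. C8g was higher by 0.33 ± 0.09. C6, a terminal gene that is no member, was higher by 3.36 ± 0.19, with control medians of 202.1 and 20.0 CPM in B6 males and females and 201.0 and 20.9 CPM in DBA.

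Outside the terminal pathway the sex differences were at most 0.45 in size among members that passed. C3 was lower in males (-0.45 ± 0.09, adjusted p = 1e-04), as were Mbl2 (-0.32 ± 0.11), Cfb (-0.25 ± 0.07) and F2 (-0.15 ± 0.05). Pros1 (0.37 ± 0.09), Mbl1 (0.37 ± 0.10), Klkb1 (0.31 ± 0.08), C1s1 (0.30 ± 0.07) and C2 (0.30 ± 0.10) were higher. Of the fibrinogen genes 0 of 3 passed. All 10 Kupffer cell markers were lower in males (median -0.74), which was not tested as a part of these differences, and Ghr was higher (0.42 ± 0.09).

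In B6 alone 12 members differed by sex, 11 higher and 1 lower in males (17.4% of all genes), and in DBA 15, 9 higher and 6 lower (25.7%). The sex difference itself differed between the strains in 6 members (15.0% of all genes). C8b rose from females to males by 2.64 ± 0.31 in B6 and by 0.95 ± 0.29 in DBA, a difference of -1.69 ± 0.41 (adjusted p = 0.0034). C8a had 2.13 ± 0.22 and 1.21 ± 0.21, a difference of -0.92 ± 0.30 (adjusted p = 0.028). That difference did not pass with no filter (adjusted p = 0.053), quality weights (0.058), the title number as a block (0.13) or without DBA male control library 1 (0.057). F5, factor V, was higher in males in B6 (0.48 ± 0.14) and lower in DBA (-0.43 ± 0.14), a difference of -0.91 ± 0.20 (adjusted p = 8.5e-04). The factor XIII B chain gene F13b had 0.46 ± 0.13 in B6 and -0.33 ± 0.13 in DBA, C3 had -0.05 ± 0.13 and -0.84 ± 0.13, and F2 had 0.01 ± 0.07 and -0.31 ± 0.07. The F2 difference did not pass under 4 of 8 alternatives (adjusted p = 0.071 to 0.08). In DBA male control library 1 F13b lay at 79.1 CPM, where the other 5 lay at 154.8 to 168.8 CPM. Without that library the F13b difference in DBA was -0.20 and that of F5 was -0.35, which no longer passed (adjusted p = 0.074); both strain differences still passed, at -0.66 and -0.83. The counts without it were 11 members by sex in DBA and 4 for the strain difference. In B6, Cpb2 did not pass without B6 female control library 4 (adjusted p = 0.051). These 3 comparisons were chosen after the data had been seen.

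Over all 72 libraries the factors held different shares of the variance of each member's log2 CPM, taken after adding 0.5 CPM. The median over the members was 27.1% for strain, 8.14% for sex, 4.82% for diet and 32.5% within groups, beside 10.5%, 4.46%, 4.79% and 52.2% over all genes. Strain was the largest of strain, sex and diet for 24 members, led by C1s2 (99.3%) and F11 (85.3%). The B6 values of C1s2 were at most 0.1 CPM, so its share depends on the added 0.5 CPM. Sex was the largest for 11, led by C8b (50%), C9 (46.2%) and C8g (45.3%). Diet was the largest for 2, C4b (36.5%) and Serpind1 (24.4%). Proc was the member with the largest share within groups (75.9%).

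**Figure D5:**
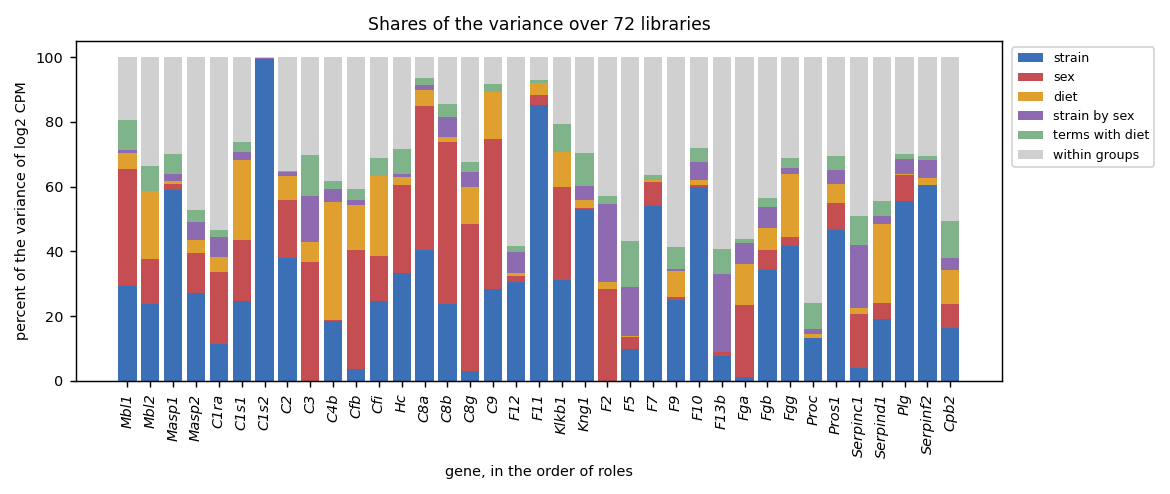
Percent of the variance of log2 CPM (0.5 CPM added) over the 72 libraries that falls to strain, sex, diet, strain by sex, the remaining terms with diet, and the spread within groups, as stacked bars for the 37 genes in the order of their roles. C1s2 and F11 are nearly all strain (99.3% and 85.3%), and Proc is mostly spread within groups (75.9%).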

How the data were processed

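Reads were aligned to GRCm38.p5 and turned into expected counts per Ensembl gene by the authors, per the labels' protocols. Which aligner and which counting tool were used is not given in the sources used here. Per the submitters' processing notes, limma and edgeR were run in R 3.4.3. The labels name both a polyA-enriched and a total RNA preparation guide. The deposited expected counts were matched to libraries by title (0 columns unmatched), 1 incomplete line was left out, and values (9.56% of nonzero ones not whole) were rounded. Of 180 pairs of libraries within a group, 0 held identical values. The authors' fold change tables were not used here.

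Gene names and positions came from GENCODE annotation of GRCm38. Genes with low counts were removed with filterByExpr, libraries were scaled by TMM (factors 0.84 to 1.14), and 14954 genes were fitted with edgeR 4.0.16 (quasi-likelihood, robust) in R 4.3.3, all 72 libraries in 1 model with a mean per group. Adjusted p-values are Benjamini-Hochberg over all genes, two-sided, with a threshold of 0.05; ± is the standard error, and CPM uses the TMM-scaled library size. The steps were tested on simulated data. Alternatives used DESeq2 1.42.0, limma 3.58.1, other scaling, no filter, the compared groups alone, a block for the title number, and B6 female control library 4 or DBA male control library 1 left out. The title number is shared by 2 libraries of a group, its meaning is not in the labels, and its within-number correlation was 0.24.

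The members, lists, tests and the rule for naming genes were chosen with earlier results of these data known. The rule named 10 members in every group (Hc, C4b, Fgb, C9, F11, F7, Mbl1, Mbl2, C1s2 and C8b), up to 8 more per comparison by lowest adjusted p, and up to 4 of the other pathway genes and regulators; C4a in the strain comparison and C6 also follow it. Members such as C1s2, C4b, C1ra and Kng1 have close paralogs, so their counts are uncertain.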

Additional observations from a re-analysis of the deposited data

Results flagged for a closer look

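Some libraries lay far from the other 5 of their group by Dixon's test, which chance passes in about 1 of 20 groups. Of 438 combinations of a member and a group, 32 held such a library. Among the 10 members given in every group these were Fgb in B6 female control library 5 (4813.6 CPM), F11 in B6 male low library 6 (37.7 CPM), F7 in DBA female control library 3 (65.3 CPM), Hc in DBA male control library 1 (498.8 CPM) and C4b in DBA male low library 1 (1789.7 CPM). DBA male high library 3 held Mbl1 at 451.1 CPM and F7 at 93.8 CPM. That library was the far one for 7 members and DBA male low library 1 for 5.

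Other values were picked out because an interaction term passed. The low isoleucine effect in DBA minus that in B6 was 0.86 for C8a, 0.44 for Kng1 and 0.73 for C9 (log2). The effect in males minus that in females was 0.59 for Mbl1 and 0.35 for Klkb1. The male minus female difference on control, in DBA minus that in B6, was -0.91 for F5, -0.79 for C3, -0.79 for F13b, -1.69 for C8b, -0.32 for F2 and -0.92 for C8a.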

How the results depend on the processing

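The 185 calls of the main fit had 1504 values under the alternatives. Of these, 1378 kept direction and side of the threshold, 126 kept direction but no longer passed, and 0 reversed. Members that did not pass in the main fit are not counted here, also where an alternative called them. The block for the title number took the most calls (48 of 185), then the fit of the compared groups alone (28) and no filter (24); leaving out B6 female control library 4 took 4, DBA male control library 1, an alternative chosen after seeing the data, 14, and DESeq2 0. With the block, the members called on low isoleucine were 7 and 3 in females and males of B6, 0 and 1 in those of DBA, 0 on high isoleucine in B6 males, 0 for the strain difference and 1 for the sex difference of the low effect. Without the filter they were 5 in B6 males and 3 in DBA males, and 1 for the sex difference. The fit of the compared groups alone gave 3 in DBA males, 0 on high isoleucine in B6 males and 7 for sex within B6. Quality weights gave 7 in DBA females and 10 in DBA males. DESeq2 gave 7 in DBA females and 4 on high isoleucine in B6 males. The cause was not tested. No paired analysis was possible because the replicate numbers are accession order. Over low isoleucine as the mean of 4 classes, the count stayed between 13 and 18. In B6, C1s2 had too few counts for a diet effect.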
